A study of Mus musculus with 12 samples.

Results

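Sox2, Sox18, Alx4, Tbx18, Trps1, Foxd1 and Cebpa are 7 genes for transcription factors of the dermal papilla, and they were taken by symbol from the 19150 genes of the deposited expression table. Each symbol occurred and passed the filter on low values. RNA was sequenced from 6 populations of cells isolated by flow sorting from dorsal skin of CD1 mice (outbred stock) on postnatal day 5, when hair follicles grow. They were dermal papilla, dermal sheath and dermal fibroblasts of the mesenchyme, outer root sheath and matrix of the epithelium, and melanocytes, with 2 libraries each and 12 in all. No transgene, deletion or treatment is given for any of them. The study behind the series is about how the sheath contracts when follicles regress.

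The dermal papilla is a cluster of mesenchymal cells at the base of the hair follicle that signals to the epithelial matrix around it, and the dermal sheath is the mesenchymal layer that wraps the follicle and is continuous with the papilla. Fibroblasts of the dermis surround the follicles, matrix cells build the hair shaft, outer root sheath cells form the outer epithelial layer, and melanocytes make the pigment. A transcription factor binds short DNA motifs and sets which genes a cell uses, so a combination of factors is commonly used to define a mesenchymal cell type. Sox2 and Sox18 are HMG-box factors. In the mouse, Sox2 marks the papillae of some hair types and not others, and Sox18 is best known from blood and lymphatic endothelium, with mutations that also affect the coat. Alx4 is a paired-type homeodomain factor of limb and craniofacial mesenchyme. Tbx18 is a T-box factor of several mesenchymes, among them the heart, the ureter and the forming papilla. Trps1 is a GATA-type zinc finger repressor, and its loss in humans gives sparse hair with skeletal changes. Foxd1 is a forkhead factor of kidney stroma. Cebpa is a basic leucine zipper factor of fat, liver and myeloid differentiation.

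The genes lie on 6 mouse chromosomes (mm10, GENCODE M21). Sox2 occupies chr3:34650405-34652461 on the plus strand, Alx4 chr2:93642384-93681339 on the plus strand and Sox18 chr2:181669836-181671640 on the minus strand. Cebpa occupies chr7:35119293-35121928 and Foxd1 chr13:98354242-98359305, both on the plus strand. Tbx18 occupies chr9:87702800-87731260 and Trps1 chr15:50654752-50890463, both on the minus strand. Whether strand was used in counting is not given, so reads of overlapping genes may not be separable. Sox2 lies within the long transcript Sox2ot on the same strand, the start of Cebpa is overlapped by the antisense gene Gm45091, and Tbx18 and Trps1 are overlapped by D030062O11Rik and Mir1907, and these 4 were not analysed here. Alx4 overlaps Ext2, a heparan sulfate polymerase gene, on the opposite strand. Ext2 had means from 32.0 to 66.8 FPKM (fragments scaled to transcript length and library size) in the 6 populations, while Alx4 was at 0.0612 FPKM or lower in the 3 that are not dermal.

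RefSeq promoter windows (GRCm38.p6, 250 bases before to 50 after the annotated start) were at hand for 4 of the 7, and they are shown for 2 genes that were highest in papilla (Sox2 and Cebpa) and 2 that were highest in sheath (Tbx18 and Foxd1). Each is written 5′ to 3′ on the strand of the gene, and capitals mark the motifs that were found on either strand. The windows are chr3:34649745-34650044 for Sox2, chr7:35119043-35119342 for Cebpa, chr9:87731211-87731510 for Tbx18 and chr13:98353995-98354294 for Foxd1. The Sox2 window follows the RefSeq start and ends 361 bases before the gene start of GENCODE given above, while the other 3 windows span that start.
Sox2: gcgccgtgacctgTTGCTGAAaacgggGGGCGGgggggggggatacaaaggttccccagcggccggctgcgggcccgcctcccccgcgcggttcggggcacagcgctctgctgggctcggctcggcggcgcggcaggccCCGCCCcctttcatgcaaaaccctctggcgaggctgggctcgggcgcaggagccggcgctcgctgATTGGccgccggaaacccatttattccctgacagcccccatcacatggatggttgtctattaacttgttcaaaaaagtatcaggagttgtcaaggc
Cebpa: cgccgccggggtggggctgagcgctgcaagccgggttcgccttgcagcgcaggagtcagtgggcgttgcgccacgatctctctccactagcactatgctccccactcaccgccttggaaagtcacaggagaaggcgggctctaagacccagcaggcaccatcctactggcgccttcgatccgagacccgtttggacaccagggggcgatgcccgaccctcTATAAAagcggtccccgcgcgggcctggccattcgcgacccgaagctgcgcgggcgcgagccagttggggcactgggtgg
Tbx18: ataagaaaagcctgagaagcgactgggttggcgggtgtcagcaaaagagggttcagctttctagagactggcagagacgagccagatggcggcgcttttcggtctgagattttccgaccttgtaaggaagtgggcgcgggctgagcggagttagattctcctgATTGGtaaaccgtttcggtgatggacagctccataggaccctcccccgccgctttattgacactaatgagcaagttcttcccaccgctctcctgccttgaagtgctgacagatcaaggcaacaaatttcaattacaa
Foxd1: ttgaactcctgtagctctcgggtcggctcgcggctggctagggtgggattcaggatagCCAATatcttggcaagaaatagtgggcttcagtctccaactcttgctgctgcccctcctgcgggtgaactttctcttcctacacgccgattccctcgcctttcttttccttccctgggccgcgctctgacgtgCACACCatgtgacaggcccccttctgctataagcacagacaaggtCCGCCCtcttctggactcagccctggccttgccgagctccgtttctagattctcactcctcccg

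The letters searched were ACAAT for SOX factors, AGATAA for zinc fingers of the GATA type, TGTTTAC for forkhead factors, GGTGTG for T-box factors, TAATTA for homeodomains, TTGCNNAA for the C/EBP core, CTTTGA for LEF/TCF factors, TATAAA for the box of that name, CCAAT for the box of that name and GGGCGG for SP/KLF factors, each on both strands, and no marked motifs overlap. The Cebpa window holds a TATA box at position -30, counted from the RefSeq start, a motif in 13.6% of the 32544 promoter windows. The Sox2 window holds the C/EBP core at position -237 (10.8% of windows), SP/KLF letters at -223 and -111 (35.9%) and a CCAAT box at -46 (37.4%). The Tbx18 window holds a CCAAT box at -87. The Foxd1 window holds a CCAAT box at -192, T-box letters at -59 (19.0%) and SP/KLF letters at -14. SOX, GATA, forkhead, homeodomain and LEF/TCF letters, in 30.8%, 11.2%, 3.66%, 5.29% and 16.02% of windows, are not in these 4 windows, and the matches are letters and not measured binding. GC content was 67.3% for Cebpa, 66.3% for Sox2, 57.7% for Foxd1 and 51.7% for Tbx18, beside a median of 53% over all windows.

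The labels were checked against marker genes before the factors were read. Over 13 papilla markers, among them Corin, Alpl, Rspo3 and Wif1, the summed level was 4085 to 4417 FPKM in papilla, 414 to 524 FPKM in sheath and 169 to 171 FPKM in fibroblasts. All markers of sheath (6), outer root sheath (7), matrix (7) and melanocytes (10) had their highest mean in the population of that label, as did the 13 of papilla. Of 8 fibroblast markers 6 did, while Pdgfra (206.7 FPKM in sheath, 167 FPKM in papilla and 62.8 FPKM in fibroblasts) and Ly6a (162 FPKM in sheath and 85.1 FPKM in fibroblasts) were highest in sheath. The fibroblast libraries in addition held 10 melanocyte markers at 7735 to 8243 FPKM, against 15045 to 17974 FPKM in melanocytes and 102 to 108 FPKM in papilla. The sum of FPKM per library ran from 373066 to 524040 and 10951 to 12413 genes reached 1 FPKM. Read depth is unknown, and an exact 0 may be a failed estimate, since Sparc, a matrix protein gene at up to 8592 FPKM elsewhere, is listed at 0 in sheath. The labels give no sort gates and do not say whether a factor served for sorting or whether paired libraries are of different animals, so p-values measure the spread between libraries, which may be technical. In bulk libraries, fewer cells of a type and less RNA per cell cannot be told apart.

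Cebpa, Alx4, Sox18, Trps1 and Sox2 were highest in papilla, and Tbx18 and Foxd1 were highest in sheath. The first 4 stood among the most abundant of the listed factors in the papilla. The list holds the families of the 7 and other mesenchymal factors, and not all transcription factors. Of 151 listed transcription factors ranked by mean FPKM in papilla, Cebpa was in place 3, Alx4 in place 4, Sox18 in place 5 and Trps1 in place 7. Sox2, Tbx18 and Foxd1 followed in places 55, 69 and 76. In the sheath Alx4 was in place 9, Sox18 in place 12 and Tbx18 in place 22.

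**Figure D1:**
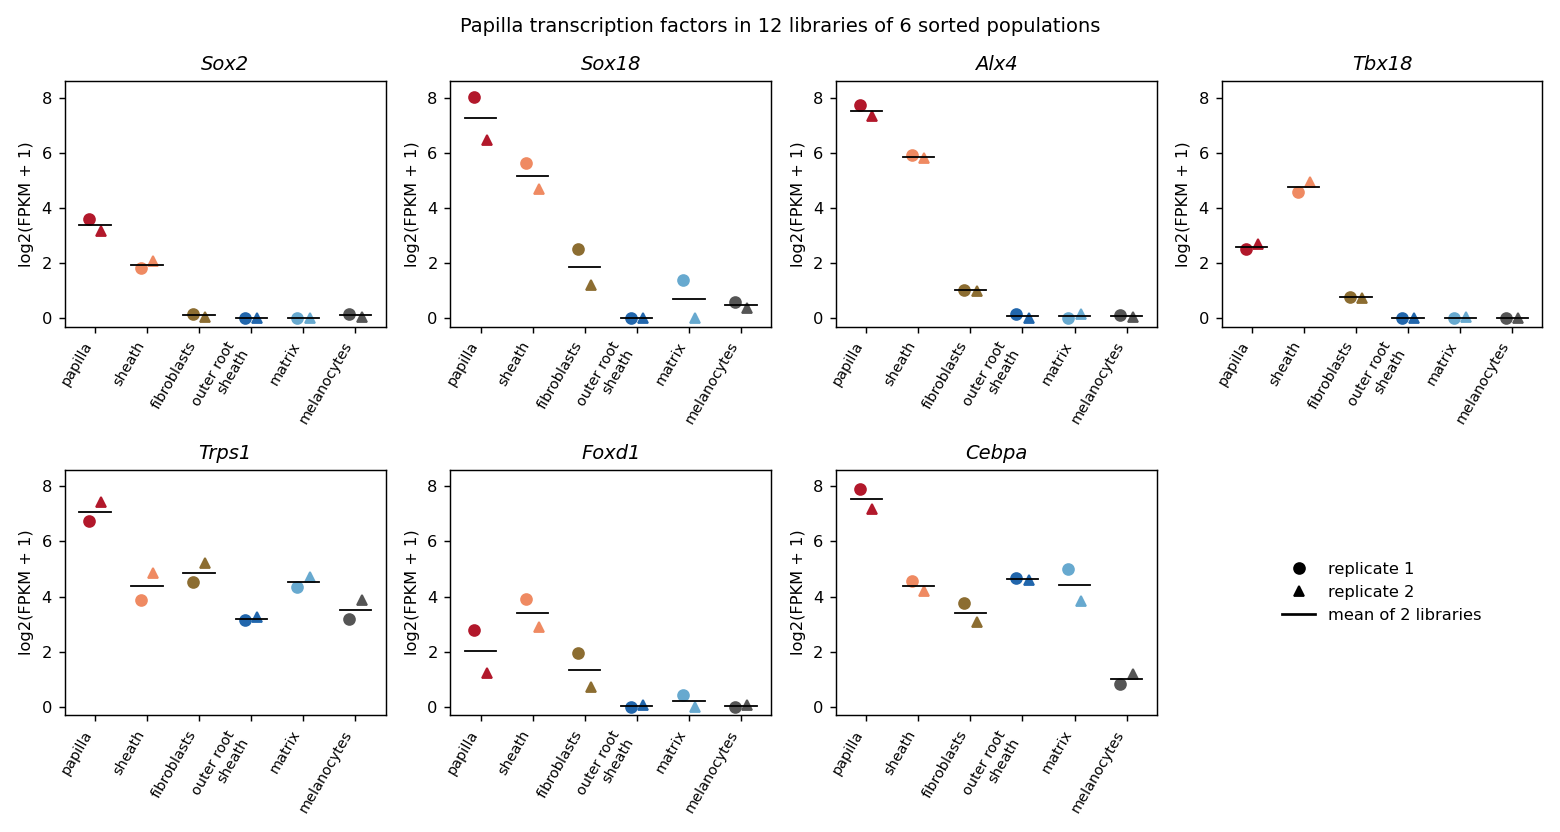
Level of each factor in each library, as log2(FPKM + 1), in the 6 sorted populations; circles and triangles are replicates 1 and 2 and the line is their mean. Cebpa, Alx4, Sox18, Trps1 and Sox2 are highest in both papilla libraries, and Tbx18 and Foxd1 in both sheath libraries.

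Cebpa was measured at 240.3 and 144 FPKM in the papilla libraries. It was at 23.0 and 17.5 FPKM in sheath, 12.6 and 7.41 FPKM in fibroblasts, 24.7 and 23.3 FPKM in outer root sheath, 31.1 and 13.2 FPKM in matrix and 0.784 and 1.31 FPKM in melanocytes. Both papilla libraries were far above all others, and the matrix libraries spanned those of sheath and of outer root sheath, which did not overlap each other. On the log2(FPKM + 1) scale the papilla mean of 192 ± 68.2 FPKM (SD, n = 2) was 8.87-fold higher than the sheath mean of 20.2 ± 3.88 FPKM (limma, log2 difference 3.15 ± 0.40 (SE), adjusted p = 0.000236). It was 17.5-fold higher than in fibroblasts (adjusted p = 3.11e-05), 7.49-fold higher than in outer root sheath (adjusted p = 0.000179), 8.76-fold higher than in matrix (adjusted p = 8.77e-05) and 92.0-fold higher than in melanocytes (adjusted p = 4.10e-07), all by limma. The order below the papilla was outer root sheath, matrix, sheath, fibroblasts and melanocytes, and of these neighbours only fibroblasts and melanocytes differed past the thresholds (limma, adjusted p = 0.00122, where 14.7% of all genes were higher in fibroblasts). Of the 7 adipocyte markers, Adipoq and Cidec were listed at 0 in papilla and sheath, and the summed list ran from 64.4 to 68.5 FPKM in papilla and from 109 to 128 FPKM in sheath, mostly from Fabp4 and Lpl, which other cells also express. Their part in the Cebpa level was not tested.

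Alx4 was measured at 211 and 159 FPKM in papilla and at 59.99 and 54.6 FPKM in sheath. Fibroblasts had 1.02 and 0.9996 FPKM, and outer root sheath (0.106 and 0 FPKM), matrix (0 and 0.122 FPKM) and melanocytes (0.0928 and 0.0199 FPKM) were near 0. Levels fell in clear steps from papilla to sheath to fibroblasts with no overlap. Papilla was 3.16-fold higher than sheath (limma, log2 difference 1.66 ± 0.26, adjusted p = 0.000894), and sheath was 28.95-fold higher than fibroblasts (limma, log2 difference 4.86 ± 0.26, adjusted p = 5.11e-07). The call between papilla and sheath was lost with a pseudocount of 0.1 (log2 difference 1.68, adjusted p = 0.0705, and adjusted p from 6.94e-05 to 0.0705 over 23 alternatives). The papilla was 91.6-fold higher than fibroblasts (limma, adjusted p = 1.29e-07), and the 3 other populations did not differ from each other past the thresholds.

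Sox18 was measured at 257 and 88.2 FPKM in papilla, 48.5 and 24.9 FPKM in sheath and 4.67 and 1.31 FPKM in fibroblasts. It was listed at 0 in both outer root sheath libraries and in 1 matrix library (1.60 FPKM in the other), and melanocytes had 0.512 and 0.283 FPKM. The order was that of Alx4, but the libraries of each dermal population lay far apart. The papilla mean of 173 ± 119 FPKM (SD, n = 2) was 4.23-fold higher on the log2(FPKM + 1) scale than the sheath mean of 36.7 ± 16.7 FPKM (limma, log2 difference 2.08 ± 0.61, adjusted p = 0.0372). This call was lost without papilla replicate 1 (log2 difference 1.32, adjusted p = 0.287), without sheath replicate 1 or 2 (adjusted p = 0.0550 and 0.212) and without outer root sheath replicate 1 or 2 (adjusted p = 0.0528 in each case). It was also lost without the filter (adjusted p = 0.0866), with a pseudocount of 0.1 (0.285), with only the 6 dermal libraries (0.0520) and with melanocyte RNA subtracted from the fibroblasts (0.0874), and adjusted p ran from 0.00254 to 0.287 over 23 alternatives. The papilla was 41.9-fold higher than fibroblasts (limma, log2 difference 5.39 ± 0.61, adjusted p = 9.33e-05) and the sheath 9.90-fold higher than fibroblasts (limma, adjusted p = 0.00287, and 0.0522 with a pseudocount of 0.1). Because Sox18 is known from endothelium, 10 endothelial markers were summed. They ran from 12.8 to 20.3 FPKM in papilla, 13.1 to 20.2 FPKM in sheath and 4.14 to 16.2 FPKM elsewhere. Sox17 and Sox7, the endothelial relatives of Sox18, had means of 0.221 and 0.256 FPKM in papilla. They were among 5 of the 10 markers with a mean under 1 FPKM there, and the others were at 1 FPKM or more. The part of endothelial cells in the Sox18 level was not tested.

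Trps1 was measured at 105 and 172 FPKM in papilla, and it was the only 1 of the 7 above 5 FPKM in every library. It had 13.9 and 27.8 FPKM in sheath, 21.8 and 35.8 FPKM in fibroblasts, 7.83 and 8.54 FPKM in outer root sheath, 19.5 and 25.4 FPKM in matrix and 8.03 and 13.6 FPKM in melanocytes. The papilla libraries stood above the rest, and sheath, fibroblasts and matrix overlapped. The papilla mean of 138 ± 46.9 FPKM (SD, n = 2) was 6.55-fold higher than sheath on the log2(FPKM + 1) scale (limma, log2 difference 2.71 ± 0.39, adjusted p = 0.000524), 4.67-fold higher than fibroblasts (adjusted p = 0.00201) and 5.81-fold higher than matrix (adjusted p = 0.000301). It was 14.8-fold higher than outer root sheath and 11.8-fold higher than melanocytes (limma, adjusted p = 1.70e-05 and 3.01e-05). No neighbours below the papilla differed past the thresholds. Among more distant populations, fibroblasts and sheath were called above outer root sheath (limma, adjusted p = 0.00579 and 0.0300, where 18.9% and 20.3% of all genes were called so) and fibroblasts above melanocytes (adjusted p = 0.0260).

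Sox2 was measured at 11.2 and 7.97 FPKM in papilla, 2.50 and 3.18 FPKM in sheath and 0.119 and 0.0374 FPKM in fibroblasts. It was listed at 0 in both libraries of outer root sheath and of matrix, and melanocytes had 0.108 and 0.0444 FPKM. It was thus the least abundant of the 5 papilla-high factors and fell to near 0 outside papilla and sheath. Papilla was 2.73-fold higher than sheath on the log2(FPKM + 1) scale (limma, log2 difference 1.45 ± 0.23, adjusted p = 0.00101), and sheath 3.55-fold higher than fibroblasts (limma, adjusted p = 0.00022). The first call was lost with a pseudocount of 0.1 (adjusted p = 0.0506, and adjusted p from 0.00016 to 0.0506 over 23 alternatives), and both fell under the fold threshold with a pseudocount of 5 (log2 differences 0.89 and 0.63). The papilla was 9.71-fold higher than fibroblasts (limma, adjusted p = 3.64e-06). Other skin cells known to hold Sox2 are Merkel cells and Schwann cells. Of the Merkel markers, Isl1 was listed at 0 in papilla and Krt8 and Krt18 had 0.0786 and 0.0211 FPKM, so that their sum of 23.2 to 23.7 FPKM was nearly all Piezo2. Schwann markers summed to 50.7 to 54.0 FPKM in papilla, of which S100b had 44.6 FPKM and Sox10 had 1.69 FPKM. From papilla to sheath, Piezo2 (23.1 to 1.67 FPKM) and S100b (44.6 to 7.38 FPKM) were called lower in sheath, as Sox2 was, while Krt20 was at 0.232 FPKM in papilla and 14.5 FPKM in sheath. Of the 7 Schwann markers, S100b was the only 1 called in this direction, 1 was called in the other and 5 were not called. Of 4 tested Merkel markers, 1 was called in each direction and 2 were not called. Of all tested genes, 7.18% were called higher and 7.41% lower in papilla than in sheath. The part of such cells in the Sox2 level was not tested.

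Tbx18 was measured at 22.8 and 29.3 FPKM in sheath and at 4.67 and 5.48 FPKM in papilla. Fibroblasts had 0.697 and 0.676 FPKM, 1 matrix library had 0.0273 FPKM, and the other matrix library and both libraries of outer root sheath and melanocytes are listed at 0. The steps from sheath to papilla to fibroblasts were clear and the libraries of each population lay close together. Sheath was 4.44-fold higher than papilla on the log2(FPKM + 1) scale (limma, log2 difference of papilla minus sheath -2.15 ± 0.23, adjusted p = 7.53e-05). Papilla was 3.59-fold higher than fibroblasts (limma, adjusted p = 0.000214), a difference that a pseudocount of 5 reduced to 0.82 on the log2 scale. Sheath was 15.9-fold higher than fibroblasts (limma, log2 difference 3.995 ± 0.23, adjusted p = 9.29e-07). The sheath held 81.9% of the sum of the 6 population means of Tbx18 and the papilla 15.9%. Of 6 pericyte markers, which can mark another Tbx18 source, the sum was 159 to 183 FPKM in sheath and 28.7 to 33.5 FPKM in papilla, mostly Mcam (119 FPKM in sheath and 5.88 FPKM in papilla). Mcam, Cspg4 (34.0 and 8.35 FPKM) and Rgs5 (13.9 and 6.06 FPKM) were called higher in sheath than in papilla, as Tbx18 was, while Notch3 was at 2.96 FPKM in sheath and 9.35 FPKM in papilla, and Kcnj8 and Abcc9 were at 0.0271 and 0.583 FPKM in sheath. Of the 6 pericyte markers, 3 were called higher in sheath, 1 was called higher in papilla and 2 were not called. Of all tested genes, 7.41% were called higher in sheath and 7.18% higher in papilla. The part of pericytes in the Tbx18 level was not tested.

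Foxd1 was measured at 13.9 and 6.37 FPKM in sheath, 5.94 and 1.36 FPKM in papilla and 2.93 and 0.634 FPKM in fibroblasts. Each of the 3 other populations had 1 library listed at 0, and their other libraries had 0.0495 FPKM (outer root sheath), 0.360 FPKM (matrix) and 0.0443 FPKM (melanocytes). The sheath libraries lay above the papilla libraries, while papilla and fibroblasts overlapped. The difference of papilla minus sheath was -1.37 ± 0.53 on the log2(FPKM + 1) scale and was not called (limma, adjusted p = 0.120), but it was called without papilla replicate 1 (log2 difference -2.15, adjusted p = 0.0293). It was called in 2 of 23 alternatives, over which adjusted p ran from 0.0293 to 0.640. The difference of papilla minus fibroblasts was 0.68 ± 0.53 and not called (limma, adjusted p = 0.501), and without papilla replicate 1 it was -0.10 (adjusted p = 0.942).

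Foxd1 was called higher in papilla than in outer root sheath, matrix and melanocytes (limma, adjusted p = 0.0118, 0.0170 and 0.0125). The folds were 3.95, 3.47 and 3.96 on the log2(FPKM + 1) scale. They depend on the added 1, as the means were 3.65 FPKM against 0.0248, 0.180 and 0.0221 FPKM. Without papilla replicate 1 these 3 calls were lost (limma, log2 differences 1.20, 1.02 and 1.21, adjusted p = 0.127, 0.175 and 0.134). The call against outer root sheath was also lost without outer root sheath replicate 1 (adjusted p = 0.0552) and that against matrix without matrix replicate 2 (adjusted p = 0.0976). With a pseudocount of 5, all 3 were lost (adjusted p = 0.0523, 0.0597 and 0.0553), and with quantile normalization so were those against matrix and melanocytes (0.0798 and 0.0703). Sheath was 4.13-fold higher than fibroblasts (limma, log2 difference 2.05 ± 0.53, adjusted p = 0.0228), a call lost without sheath replicate 1 or fibroblast replicate 2 (adjusted p = 0.181 and 0.208), with melanocyte RNA subtracted from the fibroblasts (0.101), with a pseudocount of 0.1 (0.104), without the filter (0.0592) and with only the 6 dermal libraries (0.0667).

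Counted together, 5 of the 7 factors were called higher in papilla than in sheath, Tbx18 was called lower and Foxd1 was not called. With a pseudocount of 0.1, only 2 were called higher, as Sox2, Sox18 and Alx4 lost the call. The Sox18 call was also lost under the other alternatives given above. A call needed an adjusted p below 0.05 together with a log2 difference of 1 or more in either direction, and of all 13974 genes tested 7.18% were called higher and 7.41% lower in papilla. Against fibroblasts, 6 of the 7 were called higher in papilla and none lower, with Foxd1 not called, where 7.5% of all genes were called higher and 6.68% lower. All 7 were called higher in papilla than in outer root sheath (20.1% of all genes), matrix (22.3%) and melanocytes (19.9%). The median log2 difference of the 7 was 1.66 against sheath and 3.28 against fibroblasts, beside 0.09 and 0.05 over all tested genes. These 5 comparisons share the papilla libraries, and the 7 were chosen with earlier results of these data known, so the counts are descriptions. Between sheath and fibroblasts, Alx4, Tbx18, Sox18, Foxd1 and Sox2 were called higher in sheath (7.07% of all genes), and Trps1 (log2 difference -0.49, adjusted p = 0.534) and Cebpa (0.98, adjusted p = 0.150) were not called (limma).

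**Figure D2:**
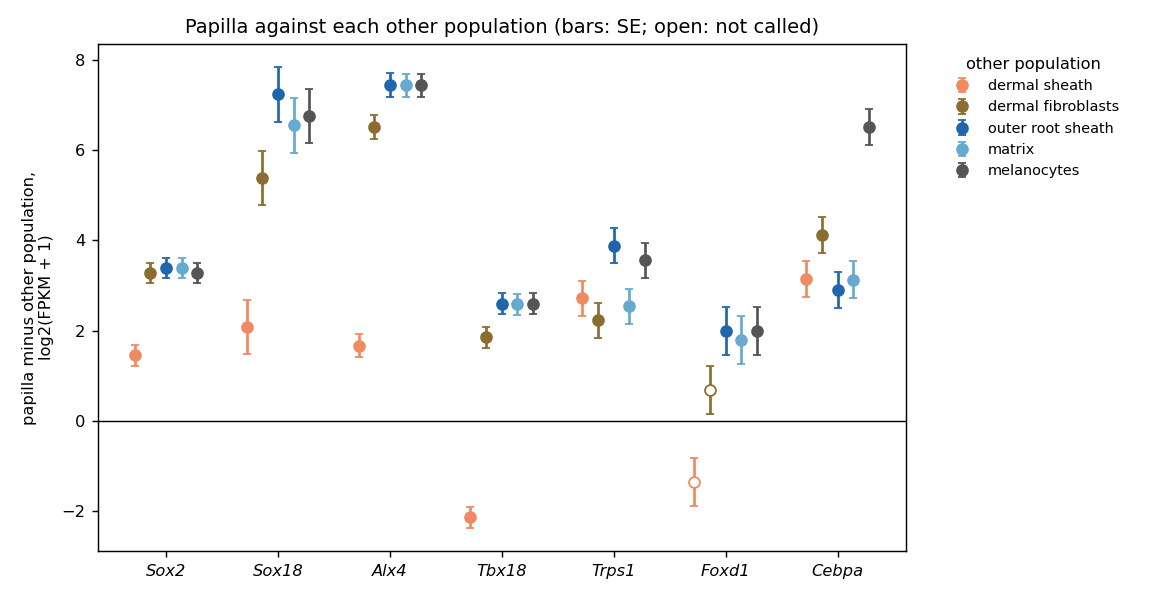
Difference of papilla minus each other population on the log2(FPKM + 1) scale, with the SE of the fit; open symbols are not called. The open symbols are those of Foxd1 against sheath (-1.37) and fibroblasts (0.68), and Tbx18 against sheath (-2.15) is the only called value below 0.

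The sheath level was also taken as a share of the papilla level. The sheath mean was 10.5% of the papilla mean for Cebpa, 15.04% for Trps1, 21.3% for Sox18, 29.6% for Sox2 and 30.96% for Alx4. The 13 papilla markers had a median of 9.90%, and 10 of them were below 20%, with Corin at 22.8%, Ncam1 at 86.9% and Prom1 at 88.7%. Sox2 and Alx4 were thus above 11 of the 13 markers, while Cebpa was above 7. Foxd1 (277%) and Tbx18 (514%) were above all 13. In fibroblasts the order differed, with 0.547% of the papilla mean for Alx4, 0.817% for Sox2, 1.73% for Sox18, 5.21% for Cebpa, 13.5% for Tbx18, 20.8% for Trps1 and 48.8% for Foxd1. These are shares of means of 2 libraries and were not tested between genes. Without papilla replicate 1 the sheath share of Sox18 was 41.6% and without papilla replicate 2 it was 14.3%, so its place among the 5 papilla-high factors rests on single libraries. For Foxd1 the same values were 746% and 170.4%, for Sox2 35.7% and 25.4% and for Alx4 35.9% and 27.2%. For Cebpa they were 14.1% and 8.43% and for Trps1 12.1% and 19.8%. The order of Cebpa and Trps1 thus also rests on single libraries, as Cebpa was above Trps1 without papilla replicate 1.

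**Figure D3:**
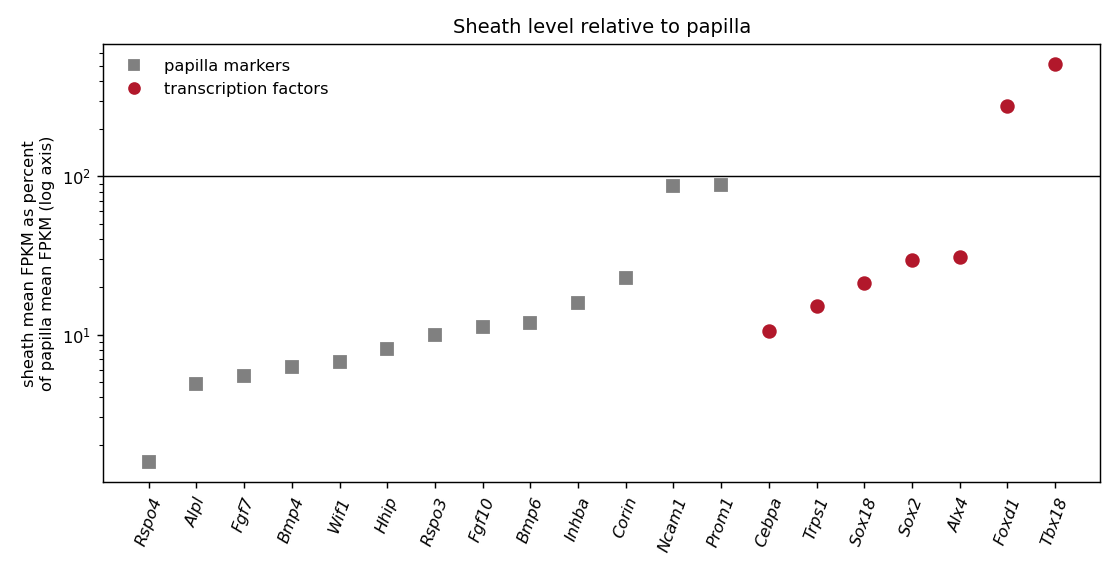
Sheath mean as a percent of papilla mean, on a log axis, for 13 papilla markers (squares) and the 7 factors (circles); the line marks equal levels at 100%. Sox2 (29.6%) and Alx4 (30.96%) lie above 11 of the markers, and Foxd1 (277%) and Tbx18 (514%) lie above the line.

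The libraries with the same replicate number differed in the same direction for some factors. Sox18 was higher in replicate 1 than in replicate 2 by 1.53 in papilla, 0.94 in sheath and 1.29 in fibroblasts on the log2(FPKM + 1) scale, and Foxd1 by 1.56, 1.01 and 1.26. In papilla both differences were larger than those of 99.7% of tested genes. Cebpa was higher in replicate 1 by 0.74, 0.37 and 0.69, and Trps1 was lower in replicate 1, with differences of -0.70, -0.95 and -0.69. Alx4 (0.40, 0.13 and 0.02), Sox2 (0.44, -0.26 and 0.11) and Tbx18 (-0.19, -0.35 and 0.02) differed less.

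Over all tested genes the same difference moved with the GC content of the transcript. With the genes cut into 5 equal groups by GC content, its median from the lowest group to the highest went from -0.53 to 0.44 in papilla, from -0.60 to 0.40 in sheath and from -0.57 to 0.45 in fibroblasts (12494 of 13974 genes, 89.4%, had a transcript). It rose as well in outer root sheath (-0.30 to 0.27), matrix (-0.21 to 0.30) and melanocytes (-0.31 to 0.36). The transcript GC content was 40.7% for Trps1, 46.8% for Tbx18, 50.5% for Sox2, 54.4% for Foxd1, 54.8% for Alx4, 60.9% for Sox18 and 62.6% for Cebpa. Foxd1 and Sox18 differed by more than the median of genes of like GC content in papilla, sheath and fibroblasts. Trps1 lay below the median of its GC group there (-0.70, -0.95 and -0.69, against -0.53, -0.60 and -0.57). Cebpa was above its median in papilla (0.74 against 0.44) and fibroblasts (0.69 against 0.45), not in sheath (0.37 against 0.40). In papilla, Sox2 (0.44 against -0.03), Alx4 (0.40 against 0.19) and Tbx18 (-0.19 against -0.29) were above theirs. In sheath these were below, and in fibroblasts of these only Alx4 was. The part of GC content in the differences between populations was not tested.

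**Figure D4:**
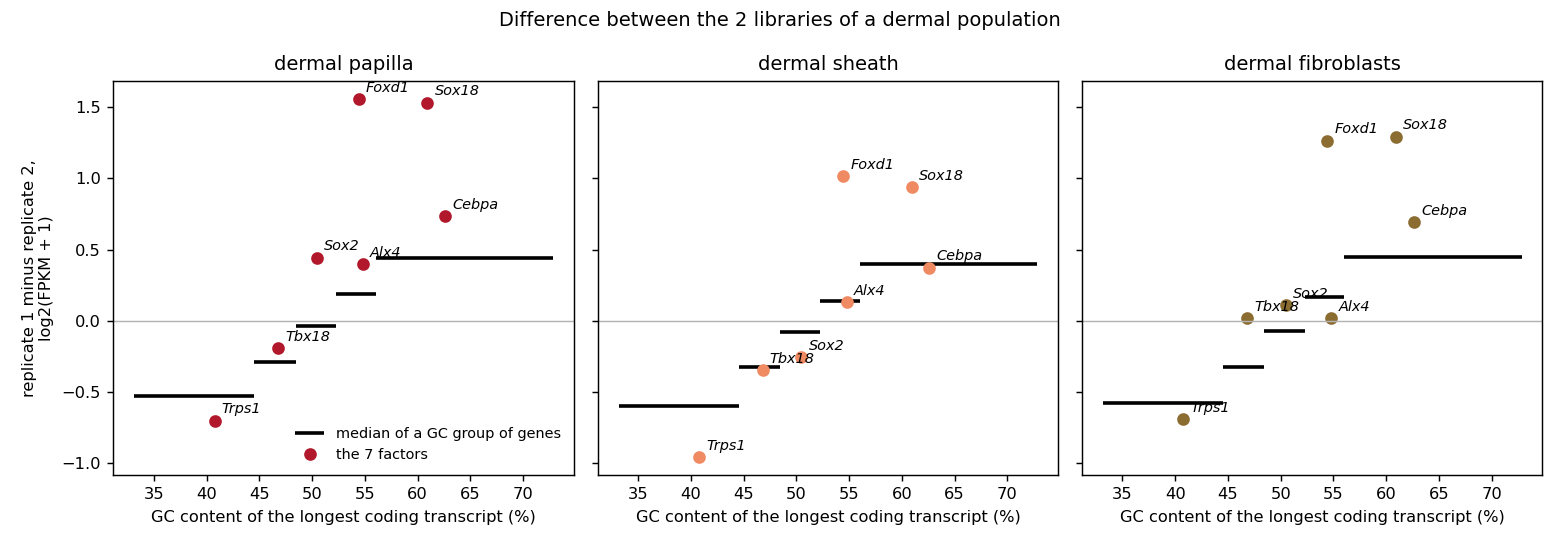
Replicate 1 minus replicate 2 on the log2(FPKM + 1) scale against the GC content of the longest coding transcript, for the 7 factors (points) and as the median of each of 5 GC groups of tested genes (bars), in the 3 dermal populations. Trps1 is low on both axes in each population, and Foxd1 and Sox18 lie above the bars, at 1.56 and 1.53 in papilla.

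Families of the factors were counted from lists that include the 7, so the calls of the factors themselves are part of the counts. Of 13 tested SOX genes, 5 were higher in papilla than in sheath and none was lower (median log2 difference 0.48), beside 7.18% higher and 7.41% lower of all tested genes. Besides Sox18 and Sox2 these included Sox13, a SoxD factor (27.9 against 3.55 FPKM, limma log2 difference 2.77 ± 0.46, adjusted p = 0.00149), and Sox12, a SoxC factor (12.3 against 2.22 FPKM, log2 difference 2.03). Against fibroblasts, 3 SOX genes were higher in papilla and 3 lower, beside 7.5% and 6.68% of all tested genes. The lower ones included Sox10, a factor of pigment and glial cells, at 1.69 FPKM in papilla and 54.9 FPKM in fibroblasts (log2 difference -4.34). The fibroblast libraries also held the melanocyte markers given above. With melanocyte RNA subtracted that difference was -1.49 and not called (limma, adjusted p = 0.442, range over 23 alternatives 2.53e-06 to 0.442).

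Of 9 tested paired-type homeobox genes, 5 were higher in papilla than in sheath and none lower (median log2 difference 1.48), beside the same 7.18% and 7.41% of all tested genes. Pax1, a factor of the vertebral column, was at 19.7 FPKM in papilla, 1.23 FPKM in sheath and 0.241 FPKM in fibroblasts (limma, log2 difference of papilla minus sheath 3.20 ± 0.22, adjusted p = 5.61e-06).

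Of 9 tested T-box genes, Tbx3 was higher in papilla than in sheath (6.24 against 1.003 FPKM, limma log2 difference 1.84) and Tbx18 and Tbx15 were lower, beside 7.18% and 7.41% of all tested genes. Tbx15, a factor of coat pattern and limb mesenchyme, was at 322 FPKM in sheath, 101 FPKM in papilla and 64.3 FPKM in fibroblasts, with a log2 difference of papilla minus sheath of -1.67 ± 0.38 (limma, adjusted p = 0.0102). Its call was lost without papilla replicate 1 (adjusted p = 0.0835), without sheath replicate 2 (0.0690), with quantile normalization (0.0560) and with a pseudocount of 0.1 (0.395), which is also the top of its range over 23 alternatives (0.000138 to 0.395). Among 23 tested forkhead genes none was higher and 3 were lower in papilla than in sheath, a count near the shares of all tested genes (7.18% and 7.41%) that is no result about the family. Foxd2, the relative of Foxd1, was at 7.53 FPKM in sheath, 1.29 FPKM in papilla and 0.214 FPKM in fibroblasts (limma, log2 difference of papilla minus sheath -1.92 ± 0.27, adjusted p = 0.000518).

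Of 6 tested C/EBP genes, Cebpa, Cebpg and Cebpd were higher in papilla than in sheath and none lower (median log2 difference 1.76), beside 7.18% and 7.41% of all tested genes. Cebpg, a partner of other C/EBP factors without an activation domain, was at 85.7 against 21.7 FPKM (limma, log2 difference 1.92 ± 0.43, adjusted p = 0.00999, lost without sheath replicate 1 at 0.0973 and without papilla replicate 2 at 0.108, range over 23 alternatives 2.47e-05 to 0.108). Cebpd was at 31.8 against 9.72 FPKM (log2 difference 1.61). Cebpb, named after its values were seen, had means of 69.6 ± 72.0 FPKM in papilla and 13.3 ± 10.9 FPKM in sheath and was not called (limma, adjusted p = 0.148). The GATA-type list had 5 tested genes, of which Trps1 was the only one called between papilla and sheath or between papilla and fibroblasts. Beside it, 7.18% of all tested genes were higher and 7.41% lower in papilla than in sheath. Against fibroblasts the shares were 7.5% and 6.68%. With 5 genes, this count is no result about the family.

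Of 45 other tested mesenchymal transcription factors, 18 were higher and 9 lower in papilla than in sheath (median log2 difference 0.40), beside 7.18% and 7.41% of all tested genes. The list was chosen with earlier results of these data known, so the count is a description. Lef1, which carries the WNT signal to its targets, was at 102 FPKM in papilla and 7.83 FPKM in sheath (limma, log2 difference 3.55, adjusted p = 6.75e-06). Hey1, a Notch target (157 against 13.3 FPKM, 3.47), and Prdm1, also called Blimp1 (70.2 against 6.13 FPKM, 3.31), were higher as well. Mkx, a tendon factor, was at 1.14 FPKM in papilla and 24.7 FPKM in sheath (-3.56), and was thus among the factors that, as Tbx18, were highest in the sheath.

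**Figure D5:**
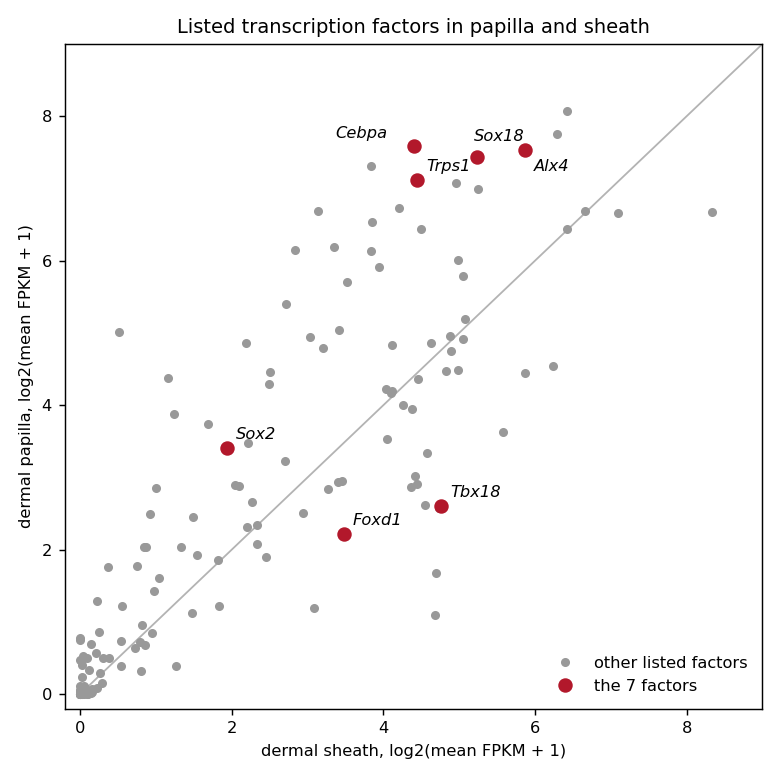
Mean level of the listed transcription factors in papilla against sheath, as log2(mean FPKM + 1); red points are the 7 factors and the line marks equal levels. Cebpa, Alx4, Sox18, Trps1 and Sox2 lie above the line, and Tbx18 and Foxd1 below it.

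Genes reported in mouse skin to lie downstream of Sox2 (Sostdc1) and of Trps1 (Wif1, Apcdd1 and Dkk4) were listed as well, and Dkk4 did not pass the filter. Sostdc1, a secreted BMP and WNT inhibitor, was at 551 ± 128 FPKM in papilla, 39.3 ± 16.6 FPKM in sheath and 5.10 ± 0.353 FPKM in fibroblasts (SD, n = 2), the order of Sox2 within the dermal populations. It was at 98.3 FPKM in outer root sheath and 18.7 FPKM in matrix, where Sox2 is listed at 0. Wif1, a secreted WNT inhibitor, was at 659.5 FPKM in papilla, 43.9 FPKM in sheath and 33.1 FPKM in fibroblasts. Apcdd1, a membrane WNT inhibitor, was at 107 ± 13.9 FPKM in papilla, 9.11 ± 1.04 FPKM in sheath and 91.1 ± 15.7 FPKM in fibroblasts. All 3 were higher in papilla than in sheath (limma, log2 differences 3.82, 3.88 and 3.41), and Sostdc1 and Wif1 were higher than in fibroblasts (6.48 and 4.28). Apcdd1 did not follow Trps1 between papilla and fibroblasts, where it was not called.

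The genes most like each factor were ranked by Pearson correlation of log2(FPKM + 1) over the 12 libraries, among 11287 genes with a mean of at least 5 FPKM in some population. The 12 points come from 6 populations and share libraries and amplification, so the values are descriptions. For Sox2 they were Mc3r, a melanocortin receptor gene (r = 0.999), 4930426D05Rik (0.990) and Foxs1, a forkhead gene (0.988). Mc3r was at 13.7 FPKM in papilla, 3.89 FPKM in sheath and 0 in fibroblasts. For Alx4 they were Lamc3, a laminin chain gene (0.997), Nog, the BMP antagonist noggin (0.994), and Foxs1 (0.994), and for Sox18 they were Cygb, the globin cytoglobin (0.990), 1500015O10Rik (0.985) and Foxs1 (0.976). Foxs1, at 6.39 FPKM in papilla, 3.30 FPKM in sheath and 0.158 FPKM in fibroblasts, was thus near all 3 of these factors. The 3 factors correlated with each other at 0.962 to 0.979, so a gene like 1 of them tends to be like all.

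Tbx18 was most like Crispld2 (r = 0.992; 141 FPKM in sheath and 8.11 FPKM in papilla), Syt13 (0.989) and Rasa4 (0.988), and Foxd1 was most like Wscd2 (0.986), Gm13889 (0.973) and Aatk (0.966). All 6 of these had their highest mean in sheath. Trps1 was most like Mgst1, a glutathione transferase gene (0.949; 330.4 FPKM in papilla), Cdh18 (0.931) and Lingo2 (0.927). Cebpa was most like Sh3bp1 (0.975), Eda, the ectodysplasin ligand gene (0.963; 19.1 FPKM in papilla and 5.87 FPKM in outer root sheath), and Ttc39c (0.950). Among the 7 themselves, r was 0.979 for Sox2 and Alx4, 0.974 for Sox18 and Alx4, 0.962 for Sox2 and Sox18 and 0.900 for Tbx18 and Foxd1. It was lowest for Trps1 with Foxd1 (0.366) and with Tbx18 (0.414).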

How the data were processed

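RNA was amplified with a NuGEN Ovation system after sorting, per the labels' protocols. The deposited table holds 1 column of FPKM per library, made by the authors. TopHat2 2.0.3, Bowtie2, Cufflinks 2.1.1 and mm10 were used, per the submitters' processing notes, and annotation, filters and strand use are not given in the sources used here. FPKM as the unit was taken from Cufflinks, which writes FPKM, and from the range of values.

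A gene was tested where 2 or more of the 12 libraries reached 1 FPKM (13974, and 5176 not), as log2(FPKM + 1). A single model of all libraries was fitted by limma (version 3.58.1, R 4.3.3), with a prior variance that follows intensity, 6 residual degrees of freedom and two-sided Benjamini-Hochberg adjustment over all tested genes. Folds are on this scale and understate changes of low genes, and none is given against a population listed at 0. For each list, up to 4 called genes with the largest difference could be named, and for each factor the 3 most correlated genes. Members and lists were chosen with earlier results of these data known. Alternatives were pseudocounts, filters, libraries in the fit, normalization, prior, replicate block, subtraction of melanocyte RNA (45.2%) and leaving out each library. Some named genes of the lists are not reported here.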

Additional observations from a re-analysis of the deposited data

How the results depend on the processing

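Of 945 member values under alternatives, 911 kept their direction and call, 31 lost the call, 2 gained it and 1 changed sign, which was Foxd1 in papilla minus fibroblasts (-0.10 to 1.45 over the fits without 1 library, lowest without papilla replicate 1, and called in none). Of 1260 values of other named list genes, 1229 kept both and 27 lost the call. With melanocyte RNA subtracted, 4 changed sign (Pax3 0.57 for papilla and 0.22 for sheath minus fibroblasts, and Sox6 0.29 and Alx1 0.025 for sheath minus fibroblasts). With a pseudocount of 0.1, 2 factors were called higher in papilla than in sheath, where Sox2, Sox18 and Alx4 lost the call. Under that setting 3 were called higher in sheath than in fibroblasts, where Sox18 and Foxd1 lost it. How many of all genes were called under it is not reported here, and the cause was not tested.

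Over all genes, a pseudocount of 5 gave 468 higher in papilla than in sheath, 578 higher and 543 lower than in fibroblasts, 1540 and 1212 against outer root sheath, 1777 and 1465 against matrix, 1492 and 1064 against melanocytes, and 439 lower in sheath than in fibroblasts. Subtraction gave 2718 higher in papilla and 2265 higher in sheath than in fibroblasts. Leaving out 1 library gave 1 to 2 factors lower in papilla than in sheath. It gave 569 to 1040 genes higher in papilla than in sheath, 651 to 1087 higher in papilla than in fibroblasts and 590 to 937 lower in sheath than in fibroblasts. The cause was not tested.

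Deviations of same-numbered libraries correlated at 0.193 to 0.539 over the 15 pairs of populations, so these libraries deviated together. The labels do not say what a replicate number stands for, and the main model holds no term for it. With the replicate block, 2 factors were lower in papilla than in sheath, since Foxd1 was also called (limma, adjusted p = 0.0322); Sox18 had adjusted p = 0.00254 there, and no other call of a factor changed. Depth is unknown, so precision rests on 2 libraries per population.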
